A study of Homo sapiens with 3 samples.

Results

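These results concern human telomerase RNA (hTR) whose 3′ end lies 10 to 29 nt past the mature end, a range called the 10 to 29 nt window here. The window was chosen by measured values, around a cluster of ends in the PABPN1 library, and takes in 20 of the 200 additions that the tables list from 0 nt upward. It held 535142 of the PABPN1 reads, 104660 of the hTERT reads and 88654 of the DKC1 reads. Because read counts set its borders, the frequency of these ends is given as a description and no test was made.

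hTR is the template RNA of telomerase. It is transcribed past its mature 3′ end, and the extra genome-encoded nucleotides are removed by exonucleases, among them PARN and the nuclear RNA exosome. The non-canonical poly(A) polymerase PAPD5 adds short runs of adenosines to such precursors, PABPN1 binds poly(A) in the nucleus, dyskerin (DKC1) binds the H/ACA domain at the 3′ part of hTR, and hTERT is the reverse transcriptase that uses the RNA as template.

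The study recovered hTR bound to each of 3 FLAG-tagged proteins, PABPN1, hTERT and DKC1, to learn which polyadenylated forms of the RNA exist. All libraries came from human embryonic kidney cells (cell line label HEK293, source name 293FT) in which the tagged protein was made from a tetracycline-sensitive promoter under doxycycline at 500 ng/ml, and the antibody was anti-FLAG M2 throughout. The tagged protein is therefore added by the experiment, and what remained of the cells' own untagged protein is not given in the labels. RNA 3′ ends were ligated to a linker, reverse transcribed, amplified for hTR in 3 rounds of PCR and sequenced. Each protein has 1 library, so there is no replicate error and no p-value, and no input or mock precipitate was analysed here. Intervals are 95% intervals and cover the counting error of reads alone. Amplified reads can be copies of one molecule, and how such copies were treated is not given, so the error in molecules may be larger.

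TERC, the gene of hTR (gene ID 7012), spans 169764610 to 169765060 on chromosome 3 of GRCh38.p14, 451 positions annotated as telomerase RNA. An addition of 0 nt was taken as its mature end, so the window lies in the flank downstream of the annotated gene. The PABPN1 library was 2658507 reads deep, that of hTERT 3040560 and that of DKC1 2996292. A tailed end carries 2 or more adenosines after the genomic addition, since the tables have columns for 0, 2, 3, 4, 5 and 6 adenosines and none for 1.

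Ends of the window were several times more frequent with PABPN1 than with either telomerase protein. They made up 20.1% of the reads with PABPN1 (interval 20.1 to 20.2), 3.44% with hTERT (3.42 to 3.46) and 2.96% with DKC1 (2.94 to 2.98). The share was 5.85 times as high in PABPN1 as in hTERT (5.81 to 5.89) and 6.80 times as high as in DKC1 (6.76 to 6.85), while hTERT stood 1.16 times above DKC1 (1.15 to 1.17). Most tailed hTR of the hTERT and DKC1 libraries lay closer to the mature end. The window held 45.7% of all tailed reads in PABPN1, against 8.60% in hTERT and 7.06% in DKC1, and additions of 1 to 9 nt held 43.5%, 88.5% and 90.3% in the same order of libraries.

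The ends were not spread alike inside the window. In PABPN1 the reads rose at each of the 6 steps from an addition of 12 to one of 17 nt and fell at the other 14. An addition of 10 nt had 35491 reads (1.335%), 11 nt had 31034 (1.17%), 15 nt had 41813 (1.57%), 16 nt had 42249 (1.59%) and 17 nt had 43602 (1.64%). The last 3 are the most frequent ends of the window in that library, and 17 nt held 1.40 times the reads of 11 nt (1.38 to 1.43). From there the reads declined to 34276 at 20 nt, 13673 at 24 nt and 5756 at 29 nt.

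Neither telomerase protein gave a rise anywhere in the window. hTERT reads fell at all 20 steps, with 36137 at 10 nt, 2501 at 17 nt and 135 at 29 nt. DKC1 reads did the same, with 31701 at 10 nt, 2039 at 17 nt and 123 at 29 nt. Reads at 17 nt were 0.118 of those at 11 nt in hTERT and 0.110 in DKC1, and the most frequent additions were 10, 11 and 12 nt in both, with 1.19%, 0.700% and 0.459% of hTERT reads and 1.06%, 0.620% and 0.372% of DKC1 reads. The median addition of the window was 17 nt in PABPN1 (quartiles 13 and 20), 11 nt in hTERT (10 and 13) and 11 nt in DKC1 (10 and 13).

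**Figure D1:**
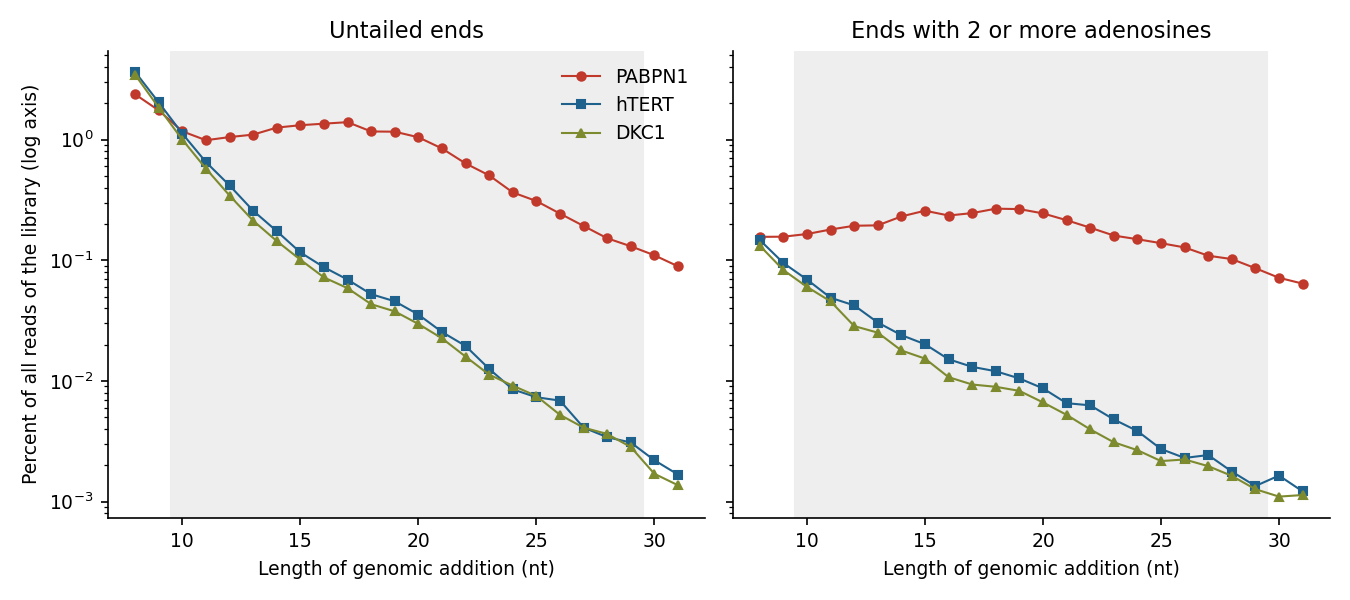
Percent of a library's reads (log axis) at each genomic addition of 8 to 31 nt, for untailed ends (left) and ends with 2 or more adenosines (right), with 1 point per library and the window shaded. PABPN1 has a maximum inside the window at 17 nt without a tail and at 18 nt with one, while hTERT and DKC1 decline from 10 nt on.

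At the borders the profiles ran on without a break. Just outside, an addition of 9 nt took 50528 PABPN1 reads (1.90%), 64586 hTERT reads (2.12%) and 57566 DKC1 reads (1.92%), and just inside, at 10 nt, the shares were 1.335%, 1.19% and 1.06%. At the far border PABPN1 had 5756 reads at 29 nt and 4828 at 30 nt, hTERT had 135 and 117, and DKC1 had 123 and 84. Along the window the shares of the 3 libraries were closest in proportion at 10 nt, and the upper border lay where hTERT and DKC1 had few reads.

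The libraries differed in how fast ends thinned out with length, more so up to 19 nt than beyond. From 9 to 19 nt the reads changed by a mean factor per added nucleotide of 0.972 in PABPN1, 0.695 in hTERT and 0.689 in DKC1. From 19 to 29 nt the factors were 0.828, 0.776 and 0.785. Additions of 10 to 19 nt accordingly held 70.5% of the window's reads in PABPN1, against 95.1% in hTERT and 95.2% in DKC1. Tailed ends thinned out more slowly than untailed ends: from 19 to 29 nt the tailed factors were 0.893, 0.815 and 0.829, and the untailed ones 0.804, 0.764 and 0.772.

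Set against hTERT at the same addition, the PABPN1 share went from near equality to a large excess along the window. The ratio of PABPN1 over hTERT was 0.895 at 9 nt, 1.12 at 10 nt, 2.71 at 12 nt, 11.5 at 15 nt, 19.9 at 17 nt and 29.2 at 20 nt. It reached 48.8 at 29 nt and stood at 47.2 at 30 nt. Over DKC1 it was 1.26 at 10 nt, 3.34 at 12 nt, 13.5 at 15 nt, 24.1 at 17 nt, 35.5 at 20 nt and 52.7 at 29 nt. Both ratios rose at 16 of 19 steps inside the window. Their median over the 20 additions was 27.3 over hTERT and 33.3 over DKC1.

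By a limit of 2-fold, 18 of the 20 additions were more frequent in PABPN1 than in hTERT, all but 10 and 11 nt, where 74.5% of all 47 additions with enough reads in both libraries passed it. The same 18 of 20 passed over DKC1, where 72.7% of 44 additions did. The window was chosen on these very frequencies, so nothing is read from these counts. Between the telomerase proteins the ratio of hTERT over DKC1 ranged from 0.985 at 28 nt to 1.30 at 22 nt. Its interval lay above 1 at 15 of the 20 additions and included 1 at 5. This count does not set the window apart, since just outside it the interval also lay above 1 at 8, 9 and 30 nt, and included 1 at 31 nt.

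**Figure D2:**
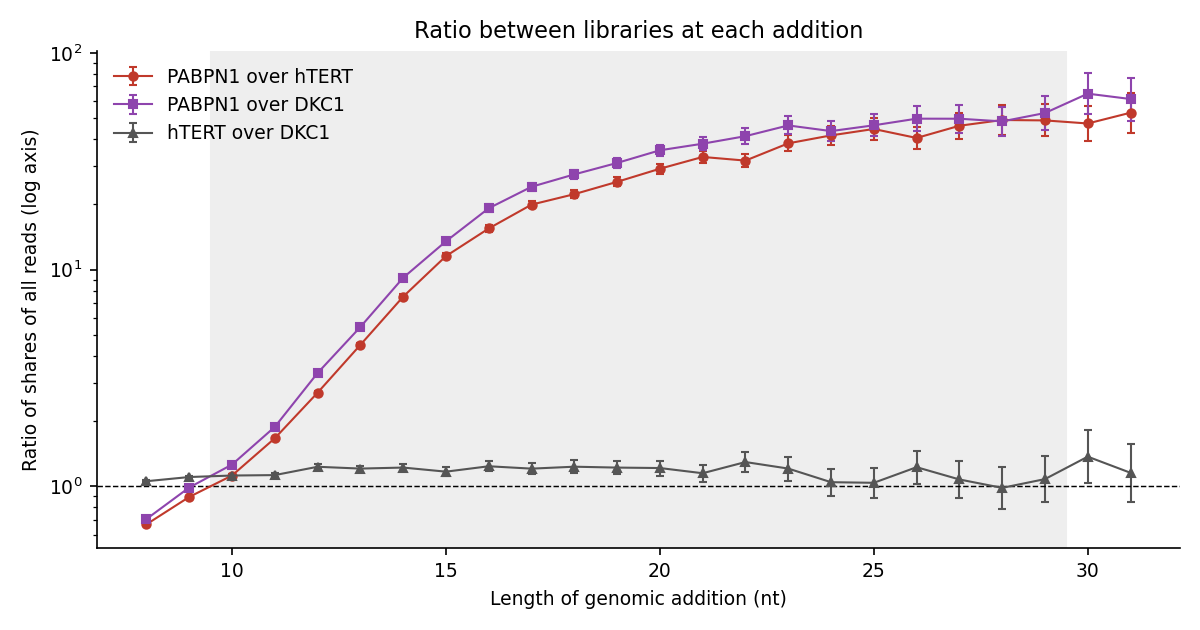
Ratio of the shares of all reads between libraries (log axis) at each addition of 8 to 31 nt, with 95% Katz intervals for counting error and the window shaded. Both ratios with PABPN1 on top go from near 1 at 10 nt to about 50 at 29 nt, reading 48.8 over hTERT and 52.7 over DKC1, while hTERT over DKC1 keeps between 0.985 and 1.30 in the window.

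The high ratios at long additions rest on few hTERT and DKC1 reads, whose proportion to the PABPN1 reads lay at 24 to 29 nt between 2.34 and 2.83 per 100 in hTERT and between 2.14 and 2.59 per 100 in DKC1. For every 100 PABPN1 reads there were 102 hTERT reads at 10 nt, 2.35 at 29 nt and 1.93 from 30 nt on. For DKC1 the figures were 89.3, 2.14 and 1.46. This last proportion, applied to the PABPN1 reads of the window, would equal 9.89% of the hTERT reads and 8.79% of the DKC1 reads in the whole window, but 60.1% and 53.8% of those at 20 to 29 nt. The proportion was not constant past 29 nt, at 2.42 in hTERT and 1.74 in DKC1 at 30 nt, and 1.54 and 1.06 from 40 nt on. These percentages thus depend on where it is taken. Whether PABPN1 reads under a wrong barcode are among the hTERT and DKC1 reads was not tested.

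Adenosine tails were found at every addition of the window in every library. Of the ends in the window, 18.6% were tailed in PABPN1 (18.5 to 18.8; 99784 reads), against 9.485% in hTERT (9.31 to 9.66; 9927 reads) and 8.82% of those in DKC1 (8.63 to 9.005; 7816 reads). PABPN1 was 9.16 points above hTERT (8.95 to 9.37) and 9.83 points above DKC1 (9.61 to 10.04), and hTERT was 0.669 points above DKC1 (0.411 to 0.926). The window lay between its neighbours: at 1 to 9 nt the tailed shares were 11.8% in PABPN1, 6.65% in hTERT and 6.31% in DKC1, and from 30 nt on they were 47.7%, 46.7% and 49.5%.

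These differences depended on which ends were set side by side. At 20 to 29 nt the tailed share was 25.6% in PABPN1, 24.4% in hTERT and 21.6% in DKC1, against 15.7%, 8.72% and 8.17% at 10 to 19 nt, and PABPN1 held more of the long additions. With each addition weighted as in PABPN1, the tailed shares were 18.6% in PABPN1, 16.6% in hTERT (16.2 to 17.1) and 15.0% in DKC1 (14.5 to 15.4). PABPN1 was then 2.02 points above hTERT (1.57 to 2.48) and 3.68 points above DKC1 (3.20 to 4.16). The size of this excess depended on the weights. With each addition weighted as in hTERT, it was 5.43 points over hTERT (5.19 to 5.67) and 6.02 points over DKC1 (5.78 to 6.27). At 10 to 19 nt the excess weighted as in PABPN1 was 2.69 points over hTERT (2.30 to 3.08). At 20 to 29 nt it was 0.433 points with an interval from -0.800 to 1.67, which includes 0. Over DKC1 it was 3.78 points (3.36 to 4.19) and 3.45 points (2.17 to 4.72). The values past 19 nt depend on the few hTERT and DKC1 reads there: without reads in the proportion to PABPN1 found from 30 nt on, the unweighted tailed shares at 20 to 29 nt would be 25.6% in PABPN1, 22.6% in hTERT and 17.1% in DKC1. The hTERT and DKC1 values would change with the addition from which that proportion is taken.

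The direction itself turned when ends were sorted by addition plus tail. Of ends with 10 to 29 added nucleotides in all, the tailed share was 19.3% in PABPN1 (19.2 to 19.4), against 20.2% in hTERT (19.9 to 20.4) and 19.9% in DKC1 (19.7 to 20.1). PABPN1 was thus 0.827 points below hTERT (-1.08 to -0.576 for PABPN1 minus hTERT) and 0.554 points below DKC1 (-0.823 to -0.287). Of the 20 single total lengths, the interval of PABPN1 minus hTERT lay below 0 at 16 and included 0 at 4. Against DKC1 it lay below 0 at 13, above 0 at 2 and included 0 at 5. These counts cover the 20 lengths alone and do not set them apart from others. At a total of 8 nt PABPN1 was also lower, with 11.5% against 12.8% in hTERT and 14.0% in DKC1. At 9 nt the shares were 13.2%, 15.4% and 16.5%. This sorting takes in tailed ends whose addition is under 10 nt, which were 11.3% of the tailed reads counted in PABPN1, 59.1% in hTERT and 61.7% in DKC1. Over the whole window PABPN1 thus had the higher tailed share with genomic additions weighted alike, and not with ends sorted by total length. The excess was not found at every single addition: the interval included 0 at 12 of 20 against hTERT and at 9 against DKC1.

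**Figure D3:**
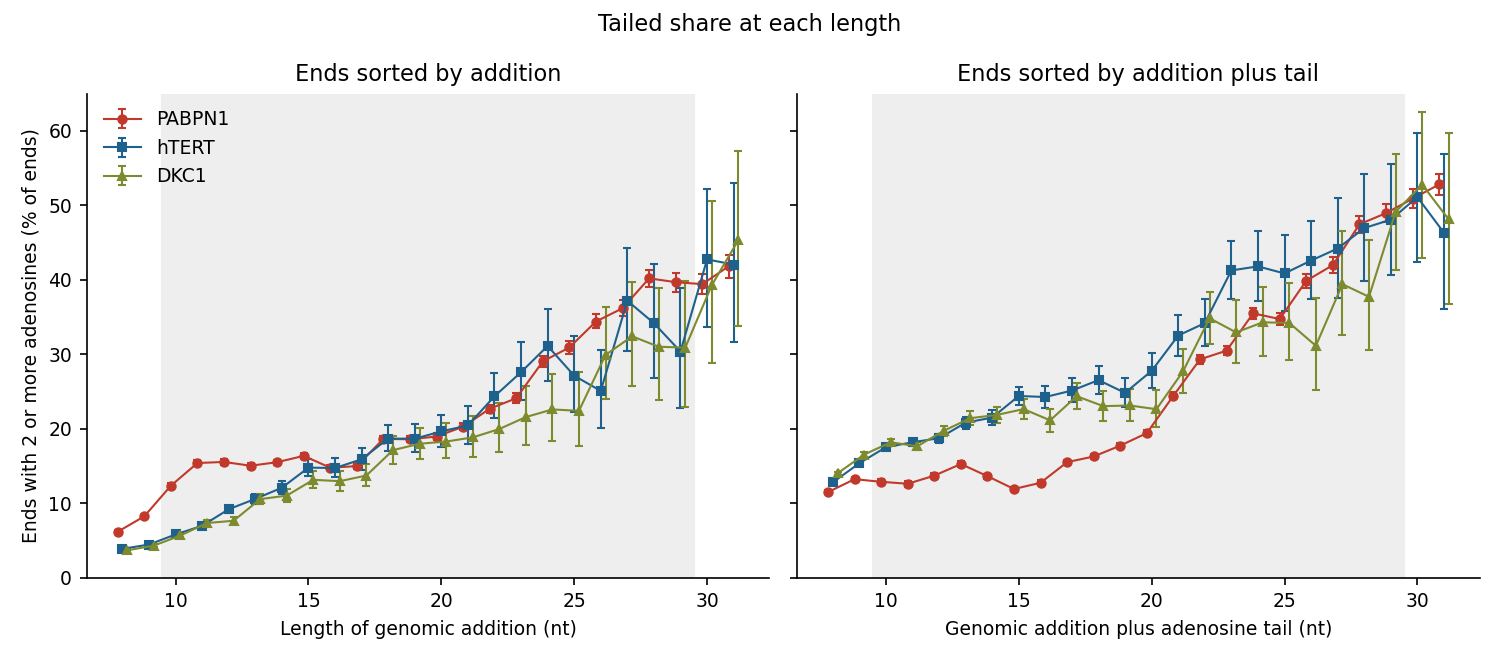
Percent of ends with 2 or more adenosines against the genomic addition (left) and against addition plus tail (right), with 1 point per library and 95% Clopper-Pearson intervals; 10 to 29 nt is shaded and points are shifted slightly sideways. On the left PABPN1 lies above the others at 10 to 15 nt, with 12.4% against 5.82% in hTERT and 5.69% in DKC1 at 10 nt; on the right it lies below them there, with 12.9% against 17.5% and 18.2% at 10 nt.

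At single additions the PABPN1 library had a plateau that the others lacked. Its tailed share was 8.25% at 9 nt, 12.4% at 10 nt and 15.4% at 11 nt, then stayed between 14.8% and 16.4% from 11 to 17 nt. It was 18.7% at 18 nt and went up to 36.2% at 27 nt, 40.2% at 28 nt and 39.7% at 29 nt. The lowest shares of the window lay at 10, 16 and 17 nt, so its 2 most frequent ends were among its least often tailed.

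In hTERT and DKC1 the tailed share climbed across the same stretch instead. hTERT ends were tailed at 4.47% at 9 nt, 5.82% at 10 nt, 6.99% at 11 nt, 9.21% at 12 nt, 15.9% at 17 nt and 18.7% at 18 nt. DKC1 ends were tailed at 4.32% at 9 nt, 5.69% at 10 nt, 7.36% at 11 nt, 7.66% at 12 nt, 13.7% at 17 nt and 17.1% at 18 nt. The highest shares were 37.2% in hTERT and 32.4% in DKC1, both at 27 nt on under 200 reads each, where the intervals ran from 30.5 to 44.3% and from 25.7 to 39.7%. Next came 34.2% at 28 nt and 31.1% at 24 nt in hTERT, and 31.0% at 28 nt and 30.9% at 29 nt in DKC1. The tailed share at 29 nt was 3.21 times that at 10 nt in PABPN1, 5.22 times in hTERT and 5.43 times in DKC1, and the median over the 20 additions was close in the 3 libraries, at 18.8%, 19.2% and 18.1%.

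At single additions the difference of PABPN1 from the others varied along the window. At 10 nt it was 6.54 points over hTERT (6.12 to 6.96) and 6.67 points over DKC1 (6.24 to 7.10). At 18 nt the difference was -0.0395 points from hTERT (-1.87 to 1.67) and 1.52 points from DKC1 (-0.468 to 3.35), both intervals including 0. At 29 nt the excess was 9.31 points over hTERT (1.003 to 16.5) and 8.79 points over DKC1 (0.0546 to 16.4), on far fewer hTERT and DKC1 reads. Among 20 unadjusted intervals, that of PABPN1 minus hTERT lay above 0 at 8 additions (10 to 15, 26 and 29 nt) and included 0 at 12. That of PABPN1 minus DKC1 lay above 0 at 11 and included 0 at 9, and that of hTERT minus DKC1 lay above 0 at 5 and included 0 at 15. These counts cover the window alone and do not set it apart from other additions. A tailed share at least 1.5 times that of hTERT was found at 3 of the 20 additions, 10, 11 and 12 nt, where 26.2% of all 42 additions passed. The same 3 of 20 passed over DKC1, where 27.5% of 40 did. Both proportions in the window are below that background.

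The neighbouring additions were then searched for jumps that the 3 libraries share, as a step of 2-fold or more in one direction in all of them. None of the 20 steps into or inside the window met this for reads, where 2.38% of all 42 steps did, nor for untailed reads, where 2.63% of 38 did. None met it for tailed reads, against 10.5% of 38 steps, nor for the tailed share, against 7.14% of 42. The shared jumps of the tables lay at additions of 1 to 4 nt. In reads, the largest fall of the window was the step to 10 nt in each library, by a factor of 1.42 in PABPN1, 1.79 in hTERT and 1.82 in DKC1, and the largest rise in reads was one by a factor of 1.15 at 14 nt in PABPN1. The largest rise of the tailed share was by a factor of 1.498 at 10 nt in PABPN1, 1.48 at 27 nt in hTERT and 1.38 at 13 nt in DKC1. Reads fell in all 3 libraries at 14 of the 20 steps and rose together at none.

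Smaller steps of the tailed share coincided at some additions. Its change from the addition 1 nt shorter had an interval above 0 at 12 additions in PABPN1, 9 in hTERT and 5 in DKC1, and at 10, 11, 15 and 18 nt in all 3. These intervals were taken in the window alone, where the tailed share went up in each library, so nothing is read from their overlap. At a limit of 1.1-fold, 3 of 20 steps of the tailed share were shared (10, 11 and 18 nt), against 23.8% of 42 over all additions. At 18 nt the tailed share was higher than at 17 nt by 3.66 points in PABPN1 (3.14 to 4.17), by 2.78 points in hTERT (0.547 to 5.04) and by 3.40 points in DKC1 (1.03 to 5.82). Untailed ends were fewer at 18 nt than at 17 nt in each library. Such falls were not particular to this step, since untailed reads fell at all 20 steps in hTERT and DKC1 and at 14 in PABPN1. PABPN1 had 31029 untailed reads at 18 nt and 37064 at 17 nt, hTERT had 1592 and 2103, and DKC1 had 1296 and 1759. Tailed reads changed less, with 7115 at 18 nt and 6538 at 17 nt in PABPN1, 366 and 398 in hTERT, and 268 and 280 in DKC1.

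At 16 nt the tailed share of PABPN1 was 1.59 points lower than at 15 nt (-2.08 to -1.10), the only fall of the window there whose interval kept below 0. The direction of the change, counted in the window alone, was up in all 3 libraries at 13 of the 20 additions. It was down in all 3 at 2 (16 and 29 nt) and mixed at 5. How the authors told added adenosines from genome-encoded ones is not given in the sources used here, and since no downstream sequence was used, their part in these steps was not tested.

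**Figure D4:**
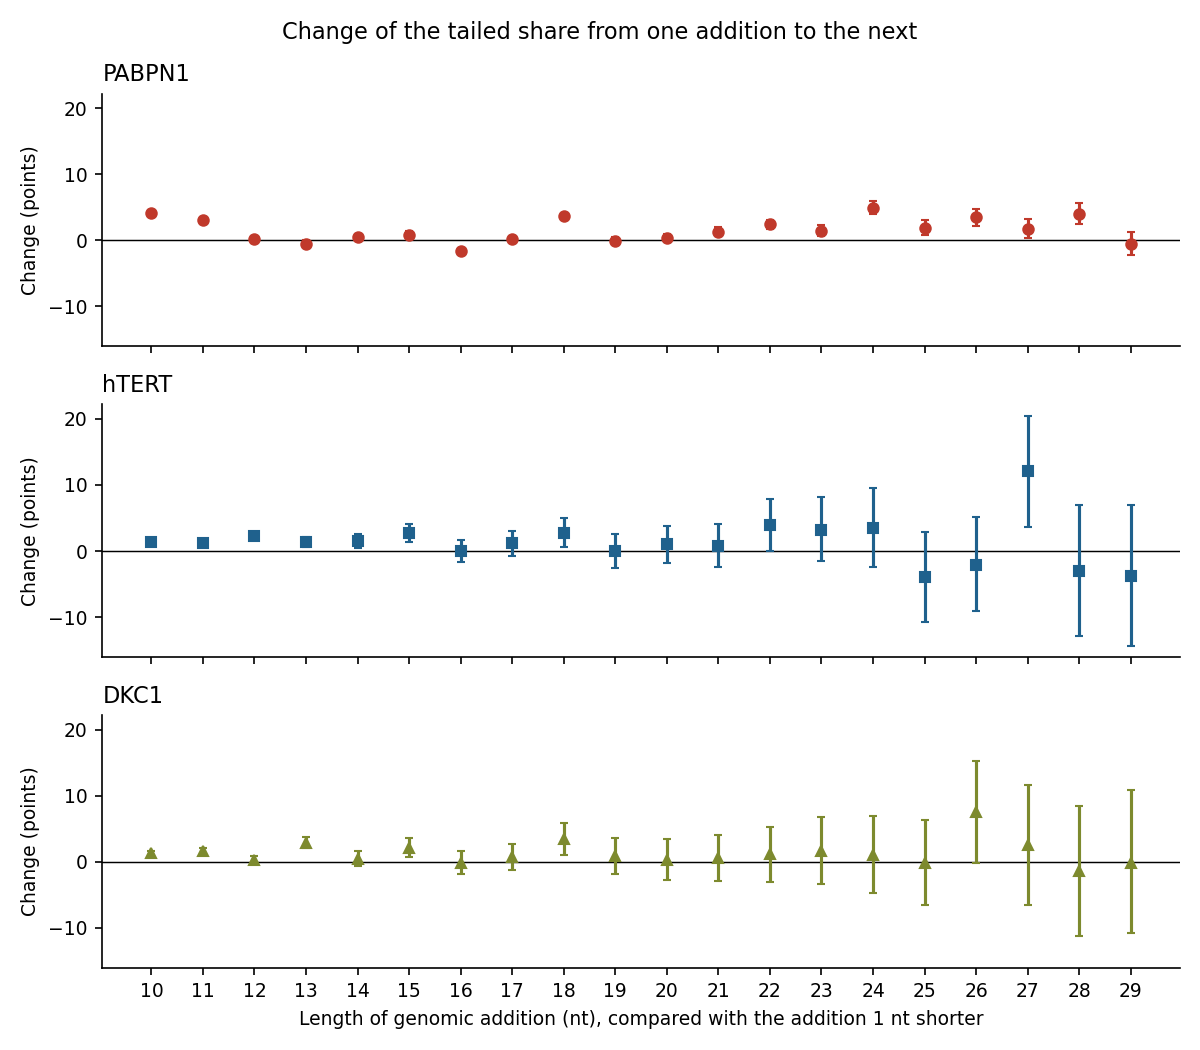
Change of the tailed share, in percentage points, from the addition 1 nt shorter to each addition of 10 to 29 nt, with 95% Newcombe intervals for counting error and 1 panel per library. All 3 libraries have intervals above 0 at 10, 11, 15 and 18 nt, and the intervals widen past 20 nt in hTERT and DKC1.

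The tails of the window were short, and the leading length was the same in the 3 libraries. A run of 2 adenosines was carried by 61.2% of the tailed PABPN1 ends, 59.5% of the hTERT ones and 61.6% of the DKC1 ones. Runs of 3 made up 21.9%, 21.96% and 23.3%, tails of 4 made up 11.6%, 12.5% and 10.6%, tails of 5 made up 2.09%, 1.58% and 1.43%, and tails of 6 made up 3.16%, 4.41% and 2.99%. The share of 2 adenosines differed by 1.68 points between PABPN1 and hTERT (0.667 to 2.69) and by -0.394 points between PABPN1 and DKC1 (-1.51 to 0.731). Between hTERT and DKC1 it differed by -2.07 points (-3.52 to -0.621). In PABPN1 the tails at 1 to 9 nt held more of 2 adenosines, at 71.8%, whereas in hTERT the share there was 59.3%, near that of the window.

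A tail of 2 was the most frequent one at 20 of 20 additions in each library. Its share ranged from 56.3% at 14 nt to 66.0% at 12 nt in PABPN1, from 51.8% at 25 nt to 70.4% at 28 nt in hTERT, and from 42.5% at 24 nt, which is 34 of 80 reads, to 67.3% at 28 nt in DKC1. Tails of 3 outnumbered tails of 4 at all 20 additions of PABPN1 and hTERT and at 19 of the DKC1 ones. Tails of 6 outnumbered tails of 5 at 13, 17 and 15 additions, and the sources used here do not say whether the last column also holds longer tails. No tail of 5 was counted at 29 nt in hTERT (0 of 41 tailed reads, which allows up to 7.32%), nor at 26 to 29 nt in DKC1 (0 of 38 at 29 nt, which allows up to 7.89%).

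**Figure D5:**
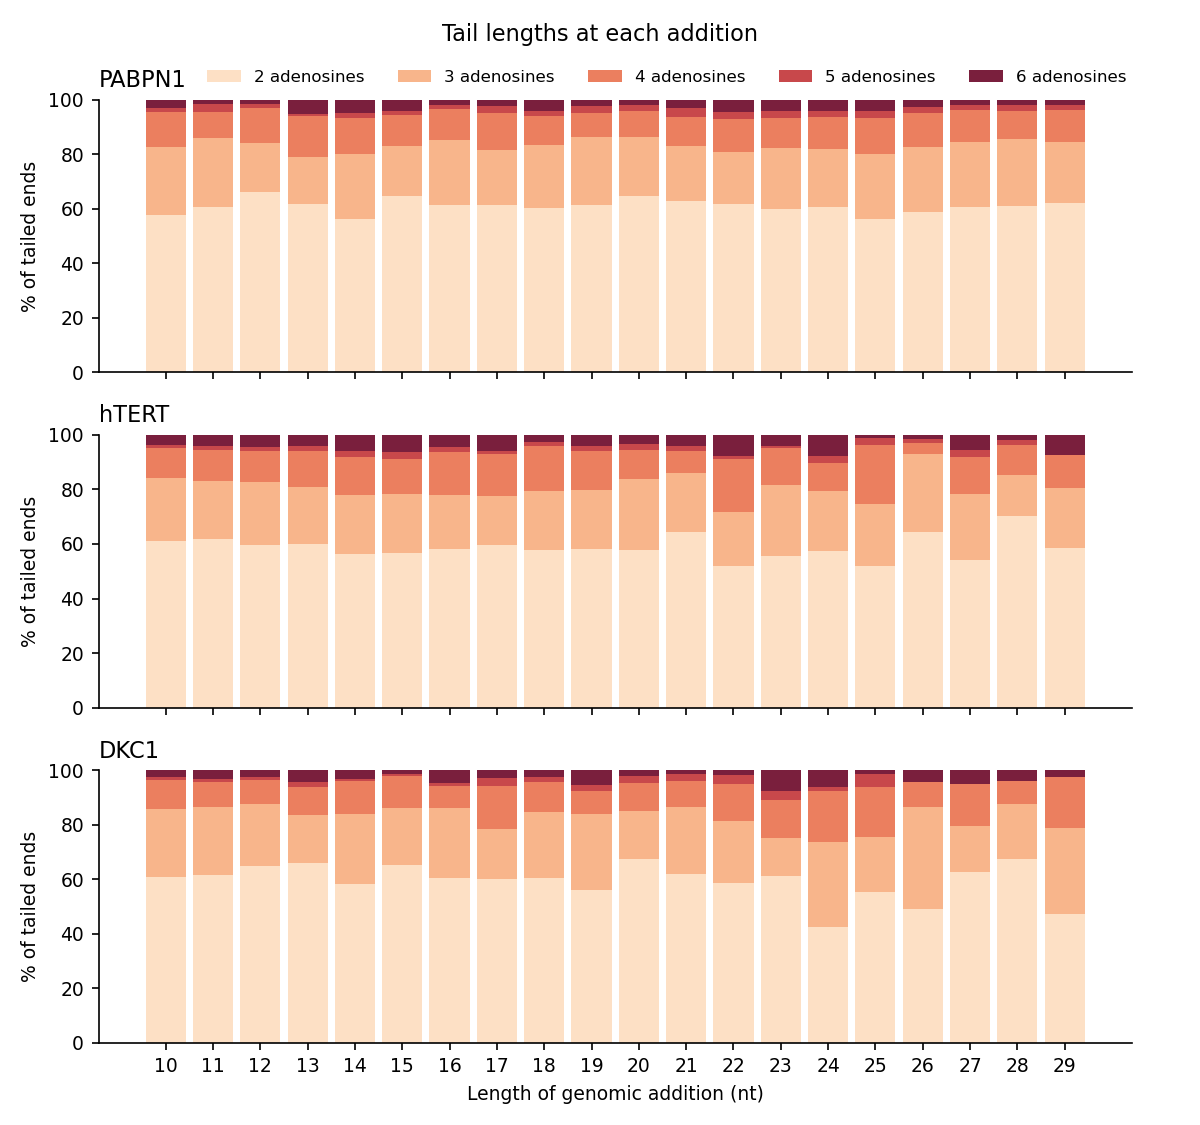
Tail lengths as percent of the tailed ends at each addition of 10 to 29 nt, stacked from 2 adenosines at the bottom to 6 at the top, with 1 panel per library. Tails of 2 fill the largest part of every bar, from 42.5% to 70.4%, and the bars vary more past 24 nt in hTERT and DKC1, where fewer than 100 tailed reads lie behind each of them.

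The ratio of ends with 2 adenosines to untailed ends was higher at 29 nt than at 10 nt in each library. The climb was not steady. Per 100 untailed ends, PABPN1 had 11.1 at 11 nt and 10.8 at 17 nt, and hTERT had 36.5 at 28 nt and 25.5 at 29 nt. For every 100 untailed ends at 10 nt there were 8.15 ends with 2 adenosines in PABPN1, 3.79 in hTERT and 3.67 in DKC1. There were 10.8, 11.3 and 9.55 at 17 nt, then 13.8, 13.3 and 12.5 at 18 nt. At 29 nt there were 40.7 in PABPN1, 25.5 in hTERT and 21.2 in DKC1, the hTERT value resting on 94 untailed reads and the DKC1 value on 85. PABPN1 thus stood above the others at 10 nt and beside them at 17 and 18 nt. Its excess at 29 nt was not seen just outside the window. At 30 nt there were 39.0 in PABPN1, 43.3 in hTERT and 39.2 in DKC1.

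Tailed ends lay farther out than untailed ones. In PABPN1 the median addition was 18 nt under a tail and 16 nt without one, in hTERT 13 and 11 nt, and in DKC1 12 and 11 nt. In PABPN1 the most frequent addition of the window was 15, 19, 17, 19 and 18 nt for tails of 2 to 6, in that order. Some addition must be the most frequent for any tail length, so these positions alone do not show a cluster for each. Tails of 6 had 299 reads at 14 nt, 122 at 16 nt and 303 at 18 nt. Tails of 4 had 894 at 17 nt, near the 862 at 9 nt outside the window. Tailed reads at 18 nt were 1.62 times those at 10 nt in PABPN1 (1.56 to 1.68), against 0.174 in hTERT and 0.149 in DKC1. Within the window, tailed PABPN1 reads were most frequent at 18 nt and untailed ones at 17 nt, whereas both kinds were most frequent at 10 nt in hTERT and DKC1. The window was set around the PABPN1 cluster and 18 nt is the tailed maximum itself. These values therefore describe the cluster and test nothing about it.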

How the data were processed

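Each table held whole-number read counts as deposited by the authors, with genomic additions down the rows and polyadenylation lengths across the columns, per the file headers. The submitters' processing notes name cutadapt, Bowtie, Bowtie2 and build hg38, with no role or order. How single adenosines, tails past the last column, genome-encoded adenosines and duplicate reads were treated is not given in the sources used here. Counts were used with no normalization, as shares of each library's reads. Shares have exact Clopper-Pearson intervals, differences Newcombe intervals and ratios Katz log intervals, all at 95%, and weighted shares have normal intervals from the binomial variances. Interval and step code was tested on simulated data.

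A step needed at least 10 reads at both additions in all 3 libraries. Comparisons of shares needed 10 reads in both libraries, and those of tailed shares 10 tailed reads. A count of 0 was given a limit of 3 reads. Additions named are, in each library, the 3 with the largest share of reads and with the highest and lowest tailed share, and the borders. Others printed (such as 14, 18, 20 and 26 nt) were chosen after their values were seen. The members, the window and the lists were chosen with earlier results of these data known. Alternatives were another denominator or window, longer tails, larger or smaller steps, unweighted means and leaving out single additions. Weighting by the PABPN1 or hTERT additions, removal of the level from 30 nt on and sorting by addition plus tail were added after seeing the data. The position of TERC is that of RefSeq's gene table, assembly GRCh38.p14. The software was numpy 2.4.6, scipy 1.17.1 and, for plots, matplotlib 3.10.9, under Python 3.11.15.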

Additional observations from a re-analysis of the deposited data

How the results depend on the processing

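Values are in the order PABPN1, hTERT, DKC1, and differences in the order PABPN1 minus hTERT, PABPN1 minus DKC1, hTERT minus DKC1. Of 66 alternative values, 8 stayed inside the counting interval of the reported value, 12 were counts of shared steps that stayed at 0, 44 left their interval and 2 changed sign. The share of ends in the window was 38.8%, 6.37% and 5.30% of extended reads. With additions of 12 to 27 nt it was 17.2%, 1.54% and 1.27%, and without the most abundant addition 18.8%, 2.28% and 1.92%. With the hTERT and DKC1 level past 29 nt taken off throughout, it was 3.16% in hTERT and 2.73% in DKC1. Tailed shares were 7.23%, 3.84% and 3.39% with tails of 3 or more, 18.8%, 13.3% and 11.97% at 12 to 27 nt, and 22.7%, 20.2% and 18.3% as unweighted means. Sorted by addition plus tail they were 19.3%, 20.2% and 19.9%. In hTERT and DKC1 they were 11.4% and 10.6% without the addition with most tailed reads, 16.6% and 15.0% at the PABPN1 mix of additions, and 8.48% and 7.87% without the level from 30 nt on. Differences in tailed share were 3.39 and 3.85 points with tails of 3 or more, 5.48, 6.80 and 1.32 points at 12 to 27 nt, and 2.45, 4.43 and 1.97 points unweighted. At the PABPN1 mix they were 2.02, 3.68 and 1.66 points, and without the level 10.2 and 10.8 points for PABPN1. Sorted by addition plus tail they were -0.827, -0.554 and 0.273 points, so both PABPN1 differences changed sign; by construction this moves tailed ends with short additions into the window. The share of 2 adenosines at 12 to 27 nt was 58.3% in hTERT. The count of shared steps was 0 at 1.5-fold, 2-fold and 3-fold and with at least 50 reads. Reads are few past 20 nt, where hTERT and DKC1 have 1343 and 1088 reads at 20 nt and 135 and 123 at 29 nt. Without the level from 30 nt on, their tailed shares at 20 to 29 nt were 22.6% and 17.1%, in place of 24.4% and 21.6%. No paired analysis was possible because each protein has 1 library.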

Other observations

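Counted by addition plus tail, the PABPN1 cluster also peaked at 17 nt, with 43878 reads or 1.65% of the library, and its lowest point before that peak lay at 11 nt. At a total of 15 nt, 11.9% of PABPN1 ends were tailed, against 24.4% of hTERT ends and 22.6% of DKC1 ends. At a total of 29 nt the shares were 48.9%, 48.1% and 49.1%.

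Single tail columns had 2-fold steps, on 10 reads or more, that the sums over tails do not show. In PABPN1 they lay at 10, 11 and 14 nt for tails of 5 (3 of 20 steps) and at 13 and 16 nt for tails of 6 (2 of 20). hTERT had them at 22 nt for tails of 4 (1 of 16) and 18 nt for tails of 6 (1 of 10). DKC1 had them at 23 and 27 nt for tails of 3 (2 of 20), 16 nt for tails of 4 (1 of 16) and 12 nt for tails of 6 (1 of 5). Untailed ends and tails of 2 had none in any library. The share of such steps over all additions was not counted, so nothing is read from their positions. The steps for tails of 6 in PABPN1 were singled out after their values were seen. Tails of 6 adenosines had 267 reads at 13 nt and 84 at 12 nt in PABPN1, where hTERT had 38 and 55 and DKC1 had 32 and 20. They had 122 reads at 16 nt and 286 at 15 nt in PABPN1, where hTERT had 21 and 39 and DKC1 had 15 and 7. The jump at 13 nt was thus upward in PABPN1 and DKC1 and downward in hTERT, on few reads outside PABPN1, and its cause was not tested.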
